A study of Homo sapiens with 8 samples.

Results

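The mitotic cyclins, the CDC25 phosphatases and the kinases that carry a cell from G2 into mitosis were followed in the outer and inner cells of breast epithelial acini. The members were every probe whose symbol in the deposited annotation was CCNA2, CCNB1, CCNB2, CDC2 (now CDK1), CDC25B, CDC25C, PLK1, AURKA (written STK6 there), AURKB or CKS1B. These 10 genes, of 18127 on the array, had 12 of its 20589 probes, with 2 probes each for CDK1 and CDC25B. MCF10A-5E is a clone of MCF10A, an immortalised, non-tumorigenic human breast epithelial line that forms hollowing spheres, called acini, on reconstituted basement membrane. All samples were day 6 acini of this clone, grown on Matrigel in medium with horse serum, hydrocortisone, cholera toxin, insulin and EGF, and no sample had a further treatment or gene change. About 50 outer cells attached to the extracellular matrix, or about 50 inner cells without that contact, were microdissected from 8 µm sections per sample. Poly(A) PCR, which amplifies short cDNAs made from very few cells, preceded hybridisation on HumanRef-8 v2.0 BeadChips from Illumina, 4 outer and 4 inner arrays. The design text speaks of amplification in quadruplicate and no label ties samples to separate cultures, so a p-value here covers the spread among the 4 samples of a group and no more, and part of that may be technical.

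CDK1 is the kinase that starts mitosis once cyclin A2 or a B-type cyclin binds it, and CKS1B is a small subunit that docks on the kinase. The WEE1 and PKMYT1 kinases hold the complex inactive, and the CDC25 phosphatases remove that block. PLK1 and Aurora A promote this switch and build the spindle poles, while Aurora B corrects attachments at the centromere and works in cytokinesis. The messengers of most of these genes accumulate in G2 and M, so they are widely used as signs of cells in division. During acinar growth proliferation is known to slow, and inner cells are later lost as the lumen forms.

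Array intensities averaged between 344.4 and 533.0, and 6429 to 7000 probes were detected on an array, meaning a detection p below 0.01. Mean intensity differed between groups by less than the spread between arrays (447.4 ± 32.3 outer and 433.5 ± 78.7 inner, SD, n = 4 each, exact two-sided permutation test, p = 0.743). Of 12 breast epithelial markers, 9 genes were detected on all 8 arrays, among them KRT5, KRT14, KRT17 and TP63, while the probes of KRT6A and CDH1 were detected on 0 arrays. The summed scaled intensity of that list was 46.6 to 53.6 on outer and 35.4 to 43.4 on inner arrays, and its part in the results was not tested. Of 16 fibroblast, endothelial and leukocyte markers, 9 were detected on 0 arrays, PECAM1, CDH5 and LUM among them, and CD68 and DCN were detected on all 8. Their summed scaled intensity was 5.10 to 11.2 on outer and 5.95 to 12 on inner arrays. As a measure of RNA quality, 24 genes of ribosomal proteins summed to 313 to 385 on outer and 308 to 386 on inner arrays.

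The comparison asks how far the mitotic control genes differ between matrix-attached and inner cells. Of the 12 probes, 9 were detected on all 8 arrays, 1 of the CDK1 probes on 5, and the probes of PLK1 and of CDC25B transcript variant 4 on 0. Intensities were background-corrected, quantile-normalised, put on a log2 scale and fitted with limma over the 6698 probes detected on at least 4 arrays. None of the 10 member probes tested passed the adjusted threshold of 0.05 (limma, lowest adjusted p = 0.618), where 0.0597% of all probes did, 0.0149% higher and 0.0448% lower in outer cells. The normalised values of outer and inner arrays overlapped for all 10, while 5.26% of all probes had groups that did not overlap, 2.57% with the outer arrays higher and 2.69% with them lower. At an unadjusted p below 0.05 there was 1 member, CDC25C, lower in outer cells, against 8.03% of all probes in either direction and 3.96% in that direction. With the brighter probe per gene, 8 of the 9 genes had a log2 difference above 0 and 1 below, and their median was 0.37. Over all probes tested 50.6% were above 0, and the median was 0.01. The members were named with earlier results of these data known, so that this count describes them and does not test them. A difference in the share of cells in G2 and M and one in messenger per cell could not be told apart in pooled cells.

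**Figure D1:**
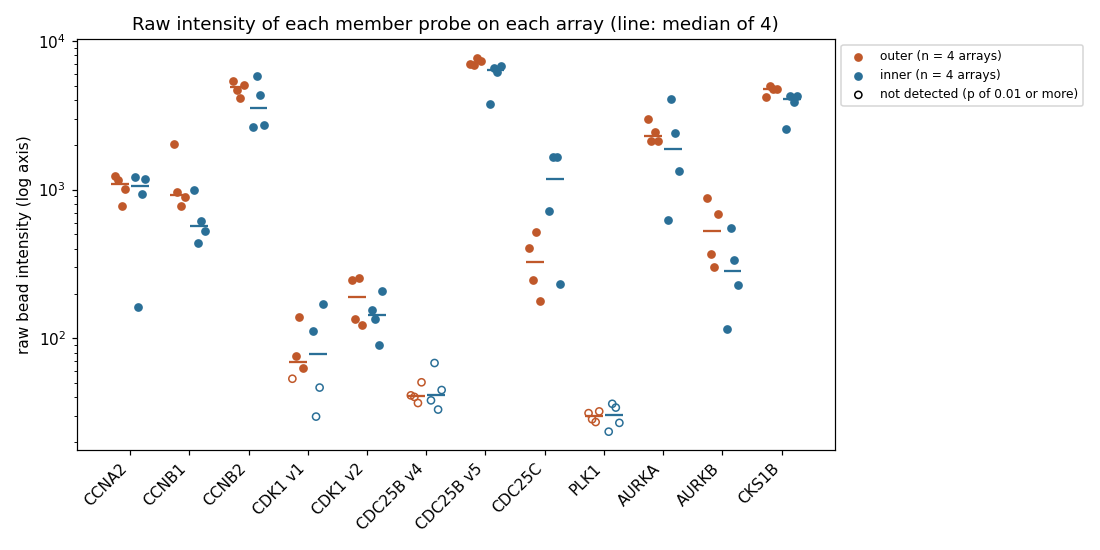
Raw bead intensity (vertical, log axis) of each of the 12 member probes on each of the 4 outer and 4 inner arrays, with a line at the median of 4 and open points where the probe was not detected; v marks the transcript variant. CDC25C is the probe whose 3 brightest arrays are all inner, and CCNA2, AURKA and AURKB each have an inner array far below the outer ones.

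The phosphatases CDC25B and CDC25C had differences of opposite sign, neither past the adjusted threshold. CDC25C, which removes the inhibitory phosphates from CDK1 at mitotic entry, had raw intensities of 406, 248, 521 and 178 on outer arrays 1 to 4 and of 723, 1651, 1657 and 231 on inner arrays 1 to 4. The first 3 inner arrays lay above every outer array, and inner array 4 lay among the outer ones, so the groups overlapped. On the log2 scale CDC25C (probe ILMN_16127, transcript variant 1) averaged 8.19 ± 0.58 over the outer arrays and 9.71 ± 1.22 over the inner arrays (SD over 4 arrays). Outer minus inner was -1.52 (standard error 0.62, 95% interval -2.97 to -0.07), a level 2.86-fold higher in inner cells (limma, unadjusted p = 0.0425, adjusted p = 0.618). An exact two-sided permutation test of the same values gave p = 0.114, where the smallest possible p is 0.0286. Without inner array 4 the log2 difference was -2.10 (limma, adjusted p = 0.258). The authors' deposited table gives an inner over outer ratio of 3.62 for CDC25C on their scaled values. Theirs is a ratio of group medians, whereas the 2.86 comes from means of log2 values.

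CDC25B is the phosphatase held to act first, at the centrosome. Its probe for transcript variant 5 (ILMN_137102) gave raw intensities of 6954, 6851, 7739.9 and 7357 on the outer arrays and of 3781, 6561, 6232 and 6771 on the inner arrays. All outer arrays lay above all inner arrays in raw intensity, but after normalisation the groups overlapped. The log2 level of CDC25B was 12.78 ± 0.09 on the outer arrays and 12.52 ± 0.24 on the inner arrays (SD, n = 4). This is a log2 difference of 0.26 with an interval of -0.23 to 0.74 (limma, adjusted p = 0.821), and it was 0.16 without inner array 1. The probe for transcript variant 4 (ILMN_137183) ran from 33.1 to 68.1 on all arrays, at background, and gives no information on that variant beyond its lack of detection. The within-array difference between CDC25B and CDC25C was 4.59 ± 0.57 in outer and 2.82 ± 1.37 in inner cells, a gap 1.77 larger in outer cells on the log2 scale (exact two-sided permutation test, p = 0.114, 0.342 adjusted over 3 pairs of related genes). It ran from 1.503 without inner array 3 to 2.45 without inner array 4, the array that lies among the outer ones.

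Among the cyclins, cyclin B1 had the highest difference. CCNB1 (ILMN_10005) was at raw intensities of 2018, 966, 780.0 and 887 on the outer arrays and of 991, 439, 618 and 526 on the inner arrays. Outer array 1 stood highest, and inner array 1 lay above 3 of the 4 outer arrays. On the log2 scale CCNB1 was at 10.03 ± 0.56 in outer and 9.26 ± 0.84 in inner cells, a difference of 0.77 with an interval of -0.34 to 1.89 (limma, adjusted p = 0.754). That difference was 1.15 without inner array 1 and 0.48 without inner array 2.

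CCNB2, the B-type cyclin of the Golgi, showed less spread. CCNB2 (ILMN_15254) was at raw intensities of 5408, 4709, 4111 and 5039 on the outer arrays and of 2647, 5838, 4337 and 2734 on the inner arrays. In raw intensity inner array 2 was the brightest of all 8, so that the groups overlapped although inner arrays 1 and 4 lay lowest. After normalisation inner array 2 (log2 12.26) lay below outer arrays 1 and 4 (12.30 and 12.32), and the groups still overlapped. Its log2 level was 12.19 ± 0.19 in outer and 11.89 ± 0.32 in inner cells, a difference of 0.30 with an interval of -0.26 to 0.86 (limma, adjusted p = 0.818), and 0.19 without inner array 4. The within-array difference, CCNB1 minus CCNB2, averaged 0.47 more in outer than in inner cells (exact two-sided permutation test, p = 0.457, and 0.457 adjusted over 3 pairs), and 0.041 more without inner array 2.

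Cyclin A2, which works with CDK2 in S phase and with CDK1 in G2, was set apart by a single array. CCNA2 (ILMN_16427) had raw intensities of 1230, 1159, 781 and 1013 on the outer arrays and of 1217, 163, 940 and 1174 on the inner arrays. Apart from inner array 2 the raw inner values lay within the range of the outer ones. After normalisation inner arrays 1 and 4 (log2 10.66 and 10.33) lay above every outer array, of which outer array 2 was highest at 10.30. The log2 difference of CCNA2 was 0.58 with an interval of -1.32 to 2.47 (limma, adjusted p = 0.912), and it was -0.29 without inner array 2.

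CDK1 was read by a pair of dim probes. The probe for transcript variant 2 (CDC2, ILMN_11503) had raw intensities of 246, 134, 256 and 123 on the outer arrays and of 154, 135, 89.5 and 208 on the inner arrays. Both groups held high and low arrays. Its log2 difference was 0.37 with an interval of -0.66 to 1.40 (limma, adjusted p = 0.890), and 0.041 where the background was estimated from all probes. It was 0.073 without inner array 3 and 0.63 without inner array 4. The probe for transcript variant 1 (ILMN_24793), at 53.4, 75.5, 139 and 63.2 on outer and 111, 29.7, 46.6 and 171 on inner arrays, was detected on 3 outer and 2 inner arrays. Its log2 difference was -0.10 with an interval of -1.94 to 1.73 (limma, adjusted p = 0.993), and its direction turned without outer array 1, inner array 1 or inner array 4. Over the 8 arrays the pair of CDK1 probes had a correlation of 0.745, and inner arrays 1 and 4 were the brightest inner arrays on both.

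CKS1B, which binds CDK1 and also helps SKP2 recognise the inhibitor p27, varied little. CKS1B (ILMN_11313) was at raw intensities of 4175, 4982, 4739.8 and 4736 on the outer arrays and of 2568, 4295, 3903 and 4261 on the inner arrays. In raw intensity outer array 1 lay below inner arrays 2 and 4, and the other outer arrays lay above all inner ones. After normalisation outer array 1 (log2 11.893) lay below inner arrays 3 and 4 (11.895 and 12.132), and outer array 3 (12.129) lay below inner array 4. The log2 difference was 0.27 with an interval of -0.22 to 0.76 (limma, adjusted p = 0.817). An increase as large as 0.76 or a decrease as large as 0.22 thus lay within the interval for CKS1B.

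The probes of the kinases came apart in detection. Aurora B, the catalytic subunit of the chromosomal passenger complex, had raw intensities of 878, 367, 301 and 685 on the outer arrays and of 115, 550, 335 and 228 on the inner arrays (AURKB, ILMN_137805). Outer arrays 1 and 4 lay above every inner array, and outer arrays 2 and 3 lay among the inner ones. The log2 level of AURKB was 8.94 ± 0.70 in outer and 7.99 ± 0.69 in inner cells, a difference of 0.95 (standard error 0.47, interval -0.14 to 2.04) (limma, unadjusted p = 0.0784, adjusted p = 0.669). This was the highest difference among the members, at a 1.94-fold level, and it was 0.51 where the background was estimated from all probes. Without outer array 3 it was 1.24 and without inner array 1 it was 0.65.

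Aurora A, the kinase of centrosome maturation and an activator of PLK1, varied less over the outer than over the inner arrays, a contrast that was not tested. AURKA (STK6 in the annotation, ILMN_12352) had raw intensities of 2976, 2112, 2453 and 2110.5 on the outer arrays and of 623, 4098, 2401 and 1325 on the inner arrays. The lowest and the highest of the 8 values were both inner. Its log2 SD was 0.12 over the outer arrays and 0.87 over the inner arrays, and the difference was 0.42 with an interval of -0.57 to 1.42 (limma, adjusted p = 0.860). Without inner array 1 it was 0.061, and without inner array 2 it was 0.73. The within-array difference, AURKA minus AURKB, gave -0.53 for outer minus inner cells (exact two-sided permutation test, p = 0.229, 0.344 adjusted over 3 pairs) and 0.049 with the background from all probes. PLK1 (ILMN_1127) ran from 23.5 to 36.2, with detection p from 0.299 to 0.925, and was not detected on any array. No fold is given for PLK1, since both groups were at background. Its probe gives no information on PLK1 beyond the lack of detection, and whether the probe responds in such samples was not tested.

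**Figure D2:**
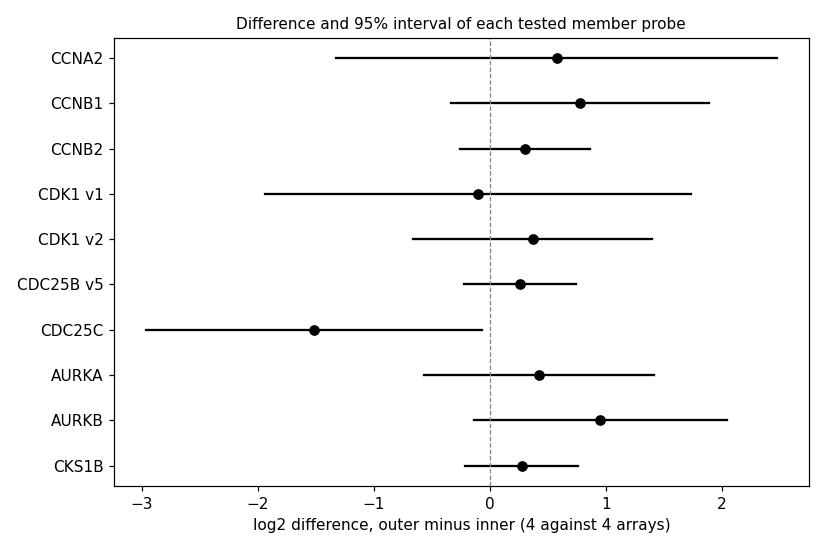
Log2 difference, outer minus inner, of each of the 10 tested member probes (point) with its 95% interval (line), from limma on 4 against 4 arrays. The interval of CDC25C, from -2.97 to -0.07, is the one that leaves out 0, before adjustment for the number of probes.

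The members differed in how far they varied over the arrays. CCNA2 spanned a 14.6-fold range over the 8 arrays after normalisation, CDC25C 8.88-fold, AURKB 5.49-fold, CCNB1 5.39-fold and AURKA 4.03-fold. The CDK1 probes spanned 8.67-fold for variant 1, detected on 3 outer and 2 inner arrays, and 3.3-fold for variant 2. CDC25B, CKS1B and CCNB2 spanned 1.56-fold, 1.54-fold and 1.72-fold. The standard error of the bead mean, which covers the measurement of 1 array and not the spread between samples, was 2.67% to 13.7% of the intensity for the 12 probes. The SD within groups on the log2 scale was 0.18 for CDC25B and 0.19 for CKS1B, smaller than that of all but 6.09% and 6.75% of probes tested. It was 1.27 for CCNA2, above that of 73.2% of them. CDC25B and CKS1B were also brighter than 97.1% and 93.7% of probes tested. Spread was not compared among probes of like level.

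The members did not move as a block from array to array. Pairwise correlations of the 9 tested genes over the 8 arrays had a median of 0.13 and ran from -0.79 to 0.85, with 21 of 36 pairs above 0, and after removal of each group's mean the median was -0.08. The arrays share the groups and a common normalisation, so that these values are descriptions. CDC25B and CKS1B went together (0.849), as did CCNB2 and AURKB (0.841), AURKA and AURKB (0.764) and CCNA2 and CCNB1 (0.731). CDC25C ran opposite to CKS1B (-0.789). Between the set of CCNA2, CCNB1 and CDK1 and the set of CCNB2, AURKA and AURKB, sets chosen after the values were seen, 7 of 9 correlations were below 0, from -0.64 to 0.14.

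Inner arrays 1 and 2 show this pattern most plainly. On the normalised scale CCNA2 was 14.6-fold, CCNB1 4.08-fold and CDK1 2.18-fold higher on inner array 1 than on inner array 2. In the other direction AURKA was 4.03-fold, AURKB 3.09-fold and CCNB2 1.45-fold higher on inner array 2. Without these 2 arrays the correlation of CCNA2 and CCNB1 was 0.222, that of CCNA2 and AURKA -0.429 against -0.64, and that of CCNB2 and AURKB 0.86. The first of these relations rested on inner arrays 1 and 2, and the last did not.

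**Figure D3:**
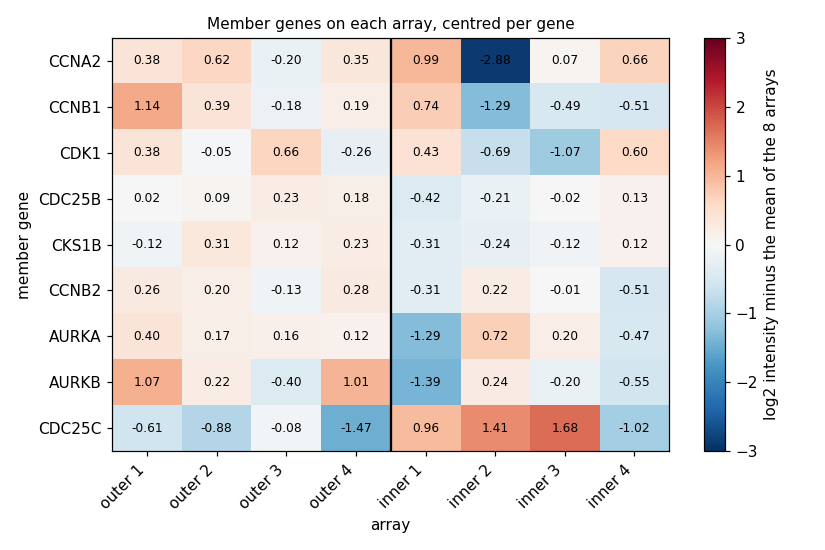
Log2 intensity of the 9 tested member genes (rows, brighter probe) on the 8 arrays (columns, outer left and inner right of the line), each minus its mean over the 8 arrays; red is above and blue below that mean. Inner 1 is high for CCNA2 and CCNB1 and low for AURKA and AURKB, and inner 2 is the reverse.

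The mean of the 9 centred genes was 0.32, 0.12, 0.02 and 0.07 on outer arrays 1 to 4 and -0.07, -0.30, 0.01 and -0.17 on inner arrays 1 to 4. The 5 other genes whose log2 values followed this mean most closely over the 8 arrays, by Pearson correlation, were POLA2 at 0.950, CYR61 (now CCN1) at 0.934, C1orf66 (now METTL25B) at 0.932, CALM3 at 0.931 and C20orf7 (now NDUFAF5) at 0.930. POLA2 is a subunit of the DNA polymerase alpha-primase complex, CYR61 a secreted matrix protein and CALM3 one of the calmodulin genes. Without outer array 1 and inner array 2, the arrays farthest from the median of the mean, the values were 0.823, 0.885, 0.841, 0.810 and 0.777 in the same order. They are the highest among 6698 probes and so are partly selected by the search. The log2 difference of POLA2 was 1.13 and that of CYR61 1.18 (limma, adjusted p = 0.443 and 0.545), and that of CYR61 was 0.072 with the background from all probes.

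Other regulators of G2 and M were read from 5 lists with 69 genes, of which 42 were tested, and these lists too were drawn up with earlier results known. Genes left out by the filter were not all dim. CDC25A was detected on 0 arrays at mean log2 levels of 9.98 in outer and 8.45 in inner cells. CDKN1A was detected on 1 outer and 2 inner arrays at 10.67 and 10.44. None of the 42 passed the adjusted threshold (limma, background 0.0597%). At an unadjusted p below 0.05, 6 were higher and 0 lower in outer cells, where 4.08% and 3.96% of all probes were. In all 33 had a difference above 0 and 9 below, with a median of 0.34 on the log2 scale. Some genes, such as CEP192 (detected on 4 outer and 2 inner arrays) and ANAPC7 (3 and 1), passed the filter mostly through outer arrays. GTSE1 (2 and 3) leaned the other way. The filter partly sets the direction of such genes, so these counts are descriptions. Among the CDK1 regulators and other mitotic cyclins, 5 of 8 were above 0 with a median difference of 0.20. MNAT1, an assembly factor of the CDK-activating kinase, had a difference of 0.69 (0.043 with the background from all probes), CKS2, the sister gene of CKS1B, 0.21, CCNF, an F-box cyclin, -0.57 and CCNA1, the cyclin A best known from the germ line, -0.15. CCNF was at -0.064 without outer array 2 and at -1.11 without outer array 4.

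In the lists of kinases and partners most differences were above 0. Of 9 other mitotic kinases 9 were above 0, with a median difference of 0.87, and 2 had an unadjusted p below 0.05. Of these NEK2 was detected on 3 outer and 1 inner array, and NEK6 and CIT on 4 and 2. Such genes passed the filter mostly through outer arrays, so their direction is partly set by it. BUB1B, a spindle checkpoint kinase, was at a log2 level of 9.69 ± 0.41 in outer and 8.35 ± 0.73 in inner cells, and PBK, a mitotic kinase, at 11.08 ± 0.27 and 10.21 ± 0.39 (SD, n = 4 each; limma, adjusted p = 0.500 and 0.501). Of 6 partners of the Aurora kinases and PLK1, 5 were above 0 with a median difference of 0.84. PLK4, the kinase of centriole duplication, differed by 2.56 but was detected on 3 outer and 1 inner array, and the difference was 0.39 with the background from all probes. BIRC5, or survivin, the passenger subunit that binds AURKB, differed by 1.31 (limma, adjusted p = 0.744, and 0.50 on the log2 scale with that background). GTSE1 was at -0.23, a direction that turned in 5 of 21 other settings.

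Of 12 transcription factors of G2 and M genes, activators and members of the DREAM complex together, 4 were tested and 4 were above 0, with E2F4, of that complex, at a log2 difference of 0.67 and NFYC, a subunit of the CCAAT-binding factor, at 0.73. NFYC was at 0.10 with the background from all probes. Among genes of mitotic exit and cyclin destruction 10 of 15 were above 0, with a median difference of 0.14. CDC23, which belongs to the anaphase-promoting complex, was at 10.53 ± 0.11 in outer and 9.48 ± 0.35 in inner cells, a log2 difference of 1.05 (limma, unadjusted p = 0.00261, adjusted p = 0.306). CDC14B, a phosphatase, differed by 3.48 but was detected on 1 inner array, and the value was 0.87 with the background from all probes. CDC16 was at -0.28 and ANAPC11 at -0.16, both of the same complex as CDC23.

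Related lists gave a frame for the members. Of 17 kinesin and kinetochore genes tested 15 were above 0, with a median log2 difference of 1.17, against 0.37 for the 9 member genes, and a test of that difference was not made. KIF15 and CENPE were detected on 3 outer and 1 inner array, and SPC25 and NDC80 on 4 and 3. The 9 member genes were read from probes detected on all 8 arrays, so these medians are not like for like. KNTC1 and NUSAP1 had the smallest p in the kinesin and kinetochore list, at log2 differences of 4.07 and 0.97 (limma, adjusted p = 0.345 and 0.432). NUSAP1 was detected on all 8 arrays, but KNTC1 on 2 of the inner arrays against 4 outer ones, which sets its value against a group partly at background. With the background from all probes KNTC1 was at 2.45 and passed (limma, adjusted p = 0.0413, with a range of 0.0413 to 0.612 over its other settings). Of 13 DNA replication genes 12 were above 0 with a median of 0.53, POLE2 and CDC45 having the smallest p at 2.27 and 2.39, and at 0.26 and 0.64 with the background from all probes. POLE2 was detected on 4 outer and 1 inner array and CDC45 on 4 and 3, and their values are likewise set against inner arrays partly at background. The gene below 0, named after its values were seen, was PRIM1, the catalytic subunit of primase, at 7.51 ± 1.05 on the outer and 9.42 ± 0.78 on the inner arrays. PRIM1 was detected on all 8 arrays and had a log2 difference of -1.91 (limma, unadjusted p = 0.0145, adjusted p = 0.501), or -1.05 with the background from all probes.

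**Figure D4:**
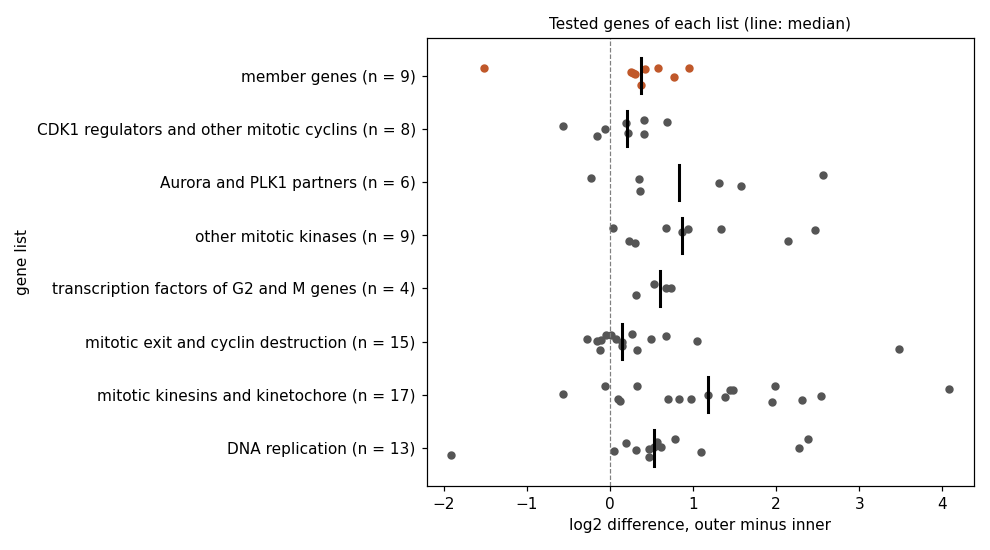
Log2 difference, outer minus inner, of each tested gene (point, 1 probe a gene) in the member set and in 7 other lists, with a line at the median of each list; points are spread vertically for sight. The member genes have a median of 0.37 with CDC25C far to the left at -1.52, and the kinesin and kinetochore list has a median of 1.17. Some genes of the kinesin and kinetochore list were detected on fewer inner than outer arrays.

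The promoters hold sequence features that the choice of members did not use. Genes of G2 and M often carry a cell cycle homology region, a hexamer near the transcription start through which the DREAM complex represses them, downstream of CCAAT boxes bound by NF-Y. RefSeq windows (GRCh38.p14) from 250 bases before to 50 bases after a start were searched on both strands for TTTGAA or TTCGAA and for CCAAT. Windows were found for 9 of the 10 genes, 17 in all, as CDK1, CDC25B, CDC25C and AURKB have several starts, and AURKA was not searched. The hexamer was present in 8 of these 17 windows (47.1%), of 6 genes, against 16.4% of all 35116 windows. CCAAT was present in 13 of 17 (76.5%), against 34.6%, and both together in 8 of 17, against 6.38%. Windows of a gene can overlap, so they are not independent. The stretches below show the 120 bases before the start, with each match in capitals (ATTGG is CCAAT on the other strand). They come from the members with 1 start and a hexamer, and from CCNB1, in which neither TTTGAA nor TTCGAA was found. They are written 5′ to 3′ on the gene's strand.
CCNB2, chr15:59105026-59105145, plus strand: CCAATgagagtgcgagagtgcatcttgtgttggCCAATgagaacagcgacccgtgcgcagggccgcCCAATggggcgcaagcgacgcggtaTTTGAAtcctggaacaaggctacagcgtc
CKS1B, chr1:154974561-154974680, plus strand: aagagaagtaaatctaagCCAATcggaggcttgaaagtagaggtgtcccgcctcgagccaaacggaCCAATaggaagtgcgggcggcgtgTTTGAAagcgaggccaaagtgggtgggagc
PLK1, chr16:23678769-23678888, plus strand: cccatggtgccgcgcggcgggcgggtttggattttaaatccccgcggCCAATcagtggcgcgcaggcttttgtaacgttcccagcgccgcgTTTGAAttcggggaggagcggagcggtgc
CCNB1, chr5:69167030-69167149, plus strand: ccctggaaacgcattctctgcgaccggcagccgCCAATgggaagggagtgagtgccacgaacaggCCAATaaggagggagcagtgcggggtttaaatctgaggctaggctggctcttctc

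TTTGAA begins 29 bases before the start in CCNB2 and PLK1 and 30 bases before it in CKS1B. CCAAT begins at -54 in CCNB2 and CKS1B, at -55 in CCNB1 and at -73 in PLK1, where -1 is the base before the start. At 1 of the CDC25C starts the hexamer lies at -30 as well, and at 1 of the CDK1 starts at -13 and at -69. For these genes 30 bases around 1 match are shown, with only the hexamer in capitals, because the starts lie within the span of the same gene. The CDK1 stretch shows the match at -69, which lies between CCAAT matches at -78 and -46. The match at -13, not shown, lies downstream of both.
CDC25C, chr5:138331817-138331846, minus strand: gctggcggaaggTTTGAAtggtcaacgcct
CDK1, chr10:60778397-60778426, plus strand: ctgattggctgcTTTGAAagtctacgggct

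The hexamer was thus shared by members on both sides of the comparison, CCNB2 at a log2 difference of 0.30, CKS1B at 0.27 and CDC25C at -1.52. It was also found in CDC25B (TTCGAA at -38), at 0.26 by the variant 5 probe. CDK1, at 0.37 or -0.10 by probe, and PLK1, which was not detected, carried it too. The windows without a match say only that these letters are not there, and the match is no measure of binding in these cells.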

How the data were processed

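Gene expression was measured on 4 outer and 4 inner arrays, grouped by sample title. Per the file headers, the deposited values are bead-averaged intensity for every probe, and its bead standard error, number of beads and detection p-value. The headers do not mention background subtraction, and an undetected probe such as that of PLK1 kept intensities of 23.5 to 36.2. The authors also deposited a ratio, intensity divided by the array's mean, as recomputed here, and the ratio of inner to outer. Scanning software is not given in the sources used here.

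Detection p lies on whole multiples of 1/708 (tolerance 0.001 of a step) for 92.5% of probes, all 12 member probes included. The normexp background was estimated from those (mean 31.1 to 38.4, SD 6.24 to 11.7 per array), since all probes together gave an SD of 262 to 391. An offset of 16, quantile normalization and log2 followed. Probes with detection p below 0.01 on at least 4 arrays, 6698 in all, entered limma 3.58.1 in R 4.3.3 (lmFit and eBayes, outer minus inner, Benjamini-Hochberg adjustment). The 1 probe without beads was left out. PLK1 and the variant 4 probe of CDC25B missed this filter and were fitted only in the alternative without it. Single values were compared by exact two-sided permutation tests. The number of arrays limits the precision.

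Members, lists and the choice of background were made with earlier results of these data known. Genes outside the members were named by rule: per list of G2 and M regulators up to 2 in each direction with the smallest p, 2 each of the kinesin and kinetochore and of the replication genes, and 5 by correlation. Names follow the file, updated through RefSeq (GRCh38.p14) for 3576 probes.

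In simulated data for this comparison (6698 probes), limma called 12%, 30%, 44% and 76% of 50 probes each that were changed 2-fold, 4-fold, 8-fold and 16-fold, with 5 false calls. Alternatives were other backgrounds, offset, scalings, filters, variance models, array weights, the authors' scaled values, the replicate block and each array left out.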

Additional observations from a re-analysis of the deposited data

Results flagged for a closer look

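On inner array 3, 7000 probes were detected, set apart from the 6570 to 6615 of the remaining inner arrays by a gap that is large for 4 values. It was the 1 such case in 30 groups of 4 values examined, over member probes and array measures, and about 1 in 20 would stand out by chance.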

How the results depend on the processing

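Over 21 other settings no tested member passed the adjusted threshold in limma, with adjusted p from 0.258 to 0.999. CDC25C stayed below 0 in all 21, from -2.10 to -1.21, with an unadjusted p below 0.05 in 14. The median log2 difference of the 9 member genes ran from 0.24 (without inner replicate 2) to 0.45. The number of members with an unadjusted p below 0.05 was 1, with 0 under median scaling and 0 to 2 when 1 array was left out. The number of all probes called was 4, with 1 for the background from all probes, 2 with an offset of 50, 2 with no filter and 1 to 7 when 1 array was left out. CCNA2 ran from -0.29 (without inner replicate 2) to 1.00 when 1 array was left out. The variant 1 probe of CDK1 turned to 0.046 with the authors' scaled values, and ran from -0.63 to 0.41 when 1 array was left out (0.23 without outer replicate 1, 0.26 without inner replicate 1, 0.41 without inner replicate 4). AURKA minus AURKB turned to 0.049 with the background from all probes, and ran from -0.80 to -0.32 when 1 array was left out. CCNA1 ran from -0.30 to 0.10 (without outer replicate 3), and GTSE1 to 0.030 with the background from all probes and ran from -0.99 to 0.43 when 1 array was left out. The cause was not tested. Settings for genes outside the members and for pairs were chosen after seeing the data. Deviations of arrays with the same number had small correlations (0.0387, 0.0309, 0.0200 and -0.0138 across probes), but 3 of 4 were best with their own number. Whether the numbers pair the arrays cannot be told from these values. The replicate block gave 0 probes called with limma and 525 at an unadjusted p below 0.05, against 538 without it, and left CDC25C at adjusted p = 0.604. With the block the unadjusted p in limma was 0.0124 for CDC25C, against 0.0425 without it. For AURKB it was 0.153, against 0.0784 without it. A fit with the BeadChip as a block could not be made, as the columns name no chip.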
